A study of Mus musculus with 6 samples.

Results

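The fibroblast growth factor (FGF) receptors Fgfr1, Fgfr2, Fgfr3, Fgfr4 and Fgfrl1 and the ligands Fgf1, Fgf2, Fgf7, Fgf9 and Fgf18 were measured in tibial cartilage of C57BL/6 mice on 1-colour Agilent expression arrays. These 10 genes were chosen by name, and every non-control probe whose RefSeq accession belongs to one of them was taken. That gave 17 of the 55681 probes on the array, printed as 35 of 59305 spots, and 10 of the 20972 genes that could be given a symbol. The mutants were 3 mice with loxP-flanked Adam10 alleles and Cre recombinase under the Col2a1 promoter, which is active in chondrocytes. The controls were 3 mice labelled only as control, and neither age nor sex is in the labels. Adam10 encodes a membrane protease that sheds cell surface proteins, and the comparison asks which transcripts differ when it is deleted in the chondrocyte lineage.

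FGF ligands bind receptor tyrosine kinases together with heparan sulfate, and the receptors signal through the adaptor Frs2 to the Ras and MAP kinase cascade. In the growth plate Fgfr3 restrains chondrocyte proliferation, and activating mutations of it cause achondroplasia. Fgf18 and Fgf9, made largely in the perichondrium, are its known ligands there, while Fgfr1 is the main receptor of hypertrophic chondrocytes and Fgfr2 of osteogenic cells around the cartilage.

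Every level below is a log2 signal relative to the 75th percentile of its own array, and every difference is mutant minus control on that scale. Levels of different probes are not compared as amounts of transcript. They serve only to rank the probes of a gene by brightness and in sums over marker genes, where bright probes weigh most. The 75th percentile lay between 510.3 and 631.0 intensity units, and the scanner software put 62.4% to 65.4% of an array's spots well above background and called 0 saturated. Adam10 itself read 0.15, -1.70 and 0.31 in mutants 1 to 3, against 1.61, 1.58 and 1.21 in controls 1 to 3, a difference of -1.88 (limma, unadjusted p 0.0108, adjusted p 0.987). Blocking on the slide row, it was -1.31, with an unadjusted p of 0.131. Without mutant 2 the Adam10 difference was -1.24, and without mutant 2 and control 1 together it was -1.16. The labels do not say which exon was flanked, and whether the Adam10 probe reads the deleted stretch is not known. Xist exceeded Ddx3y on mutant 3 and control 1 and not on the other arrays, so by this pattern both groups mixed the sexes. The pattern was not clean on 2 mutant arrays. Xist read -3.66 on mutant 1, against -7.32 on mutant 2, and Ddx3y read -4.57 on mutant 3, against -7.34 on control 1. The cause of these values was not tested. All 17 chondrocyte markers were above background, among them Col2a1, as were all 10 markers each of skeletal muscle, osteoclasts and endothelium and 7 of 8 adipocyte markers. The tissue thus carried transcripts of other cells beside cartilage, and in such bulk samples fewer cells of a type and less RNA per cell cannot be told apart. On the first principal component mutant 2 lay farthest to one side and control 1 to the other, at 71.0 and -55.3. The other arrays lay between -14.0 and 15.2. Differences of the 10 genes that rest on mutant 2 or control 1 are also given without them. Those of single genes outside the 10, Adam10 excepted, are given with all arrays only and may rest on either array.

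For none of the 10 genes was a difference between the genotypes called by the test used. In limma, with p-values adjusted by Benjamini-Hochberg across 25494 features, 0 of the 10 genes passed an adjusted p of 0.05 (0% of all features passed) and 0 of 10 had an unadjusted p below 0.05 (3.44% of all features). The smallest unadjusted p among them was 0.132, for Fgf1. The differences of the 5 receptors were all above 0, between 0.11 and 0.27, with a median of 0.14. One of these is Fgfr4, whose probes differed in sign, and 4 of 5 were above 0 with the mean of a gene's probes. Those of the ligands lay below 0 for 4 of 5, between -0.72 and 0.01, with a median of -0.25. Over all features 60.0% were above 0 and the median was 0.04. Without mutant 2 the median was 0.07 for the receptors, 4 of 5 being above 0, and -0.02 for the ligands. Without mutant 2 and control 1 it was 0.02 for the receptors and 0.06 for the ligands, so the ligand median changed sign. All arrays lay on 1 slide, with mutant 1 and the controls in one row and mutants 2 and 3 in the other. With the slide row as a block, which leaves mutant 1 against the 3 controls of its row, the median was 0.19 for the receptors and -0.13 for the ligands. In that comparison 4 of 5 receptors were above 0, Fgfr4 being at -0.20, while Fgf1 was at -0.30 and Fgf7 at 0.043. Mutants 2 and 3 had no control in their row, so for them row and genotype cannot be told apart. All 10 genes were well above background on all 6 arrays with their brightest probe, so the filter on dim probes removed none.

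**Figure D1:**
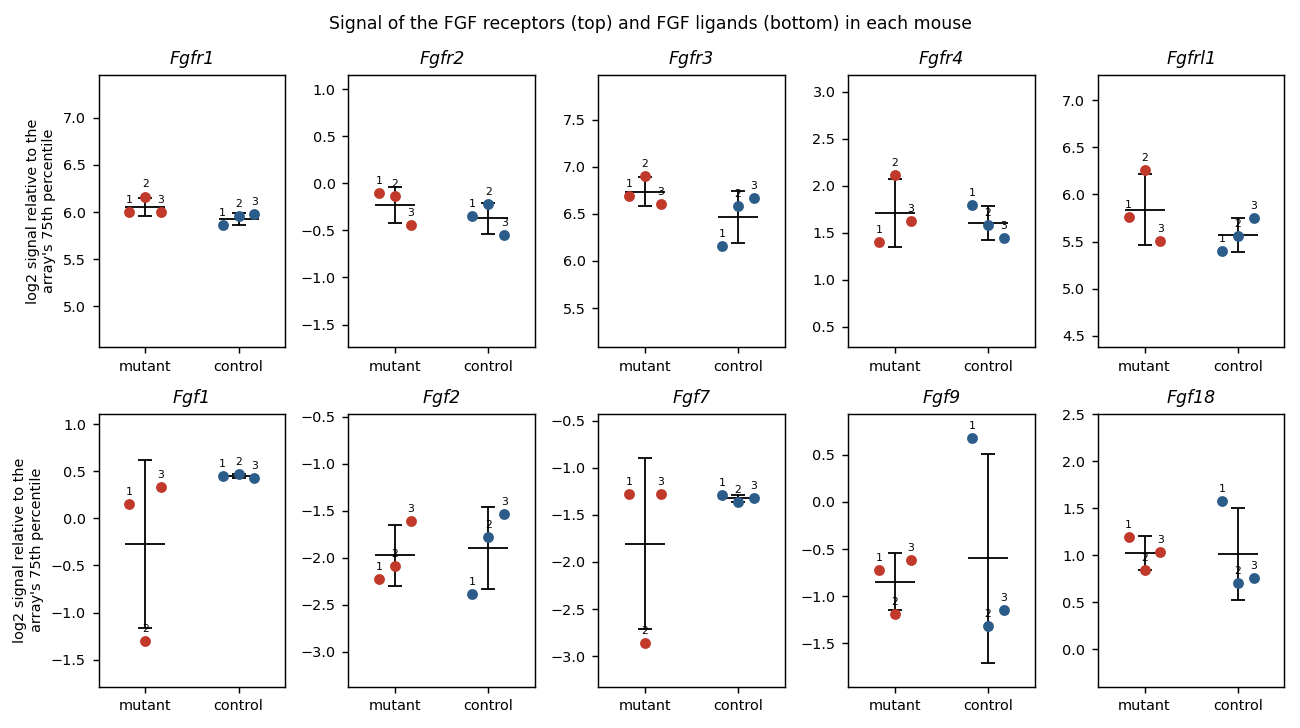
Log2 signal (relative to the array's 75th percentile) of the brightest probe of each of the 10 genes in the 3 mutant mice (red, left) and 3 control mice (blue, right); points carry the mouse number, and the bars give mean and SD. Each panel spans the same number of log2 units. Receptor values of both genotypes lie close together, mutant 2 is far below the other mice for Fgf1 and Fgf7, and control 1 is far above them for Fgf9 and Fgf18.

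Fgfr3, the receptor that holds back chondrocyte proliferation, read 6.69, 6.91 and 6.61 in mutants 1 to 3, against 6.16, 6.59 and 6.66 in controls 1 to 3. The groups overlapped, with mutant 2 the highest and control 1 the lowest array. The difference was 0.27 (SE 0.18, 95% interval -0.16 to 0.69), or 1.20-fold, with an unadjusted p of 0.179 and an adjusted p of 0.987 in limma. A second Fgfr3 probe gave 2.49, 2.70 and 2.17 in mutants, against 1.91, 2.35 and 2.23 in controls, a difference of 0.29 (SE 0.19). Both probes thus placed mutant 2 highest and control 1 lowest. Without control 1 the Fgfr3 difference was 0.11, and without both of these arrays it was 0.02.

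Fgfr1, the receptor tied to hypertrophic chondrocytes and osteoblasts, read 6.00, 6.16 and 6.00 in mutants, against 5.86, 5.96 and 5.98 in controls. Among the receptors its groups alone did not overlap, though the gap was narrow, and its exact two-sided permutation test gave 0.1, the lowest p possible with 3 arrays in each group. The groups did not overlap for 2 of the 10 genes, against 8.95% of all features. Fgfr1 was the 1 member with every mutant above every control (5.19% of all features) and Fgf1 the 1 with every mutant below (3.75%). The Fgfr1 difference was 0.12 (SE 0.11, 95% interval -0.15 to 0.40), or 1.09-fold. It was 0.033 with quantile scaling, 0.0053 with normexp and quantile scaling, and 0.07 without mutant 2. The other Fgfr1 probes did not separate the groups. One had a difference of 0.14 (SE 0.18), with 2.41, 2.39 and 1.87 in mutants and 2.11, 1.97 and 2.17 in controls. The third had a difference of -0.0052 (SE 0.15), with 0.69, 1.04 and 0.69 in mutants and 0.79, 0.75 and 0.91 in controls.

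Fgfrl1 encodes a receptor without the intracellular tyrosine kinase domain. It read 5.76, 6.26 and 5.50 in mutants, against 5.40, 5.56 and 5.75 in controls. Mutant 2 was the highest array, and mutants 1 and 3 lay within or next to the range of the controls. The difference was 0.27 (SE 0.22, 95% interval -0.25 to 0.79), and it became 0.06 without mutant 2 and -0.02 without both mutant 2 and control 1.

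Fgfr2, a receptor of osteoprogenitors and perichondrial cells, was measured by a probe with 10 spots and by a single-spot probe. The single-spot probe, the brighter of the pair, read -0.10, -0.14 and -0.44 in mutants, against -0.35, -0.22 and -0.55 in controls, a difference of 0.14 (SE 0.15, 95% interval -0.22 to 0.51). Without control 3 it was 0.057 and without mutant 3 it was 0.25. The probe with repeated spots read -1.14, -1.13 and -1.62 in mutants, against -1.31, -1.36 and -1.46 in controls, a difference of 0.08 (SE 0.17). With either probe mutants 1 and 2 lay above all controls and mutant 3 did not. Repeated spots give the scatter within an array. Their SD was 0.09, 0.14 and 0.13 in mutants, against 0.08, 0.07 and 0.12 in controls. Spots of an array share extract, labelling and hybridisation, so this scatter leaves out differences between arrays.

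Fgfr4, best known as the receptor for bile acid control in liver and also present in muscle, had probes that differed in sign. The brighter probe read 1.40, 2.11 and 1.63 in mutants, against 1.79, 1.58 and 1.44 in controls, a difference of 0.11 (SE 0.21). The dimmer one read 0.05, -0.49 and 0.34 in mutants, against 0.62, 0.07 and -0.07 in controls, a difference of -0.24 (SE 0.27). Mutant 2 was thus the highest array for one probe and the lowest for the other. With the mean of both probes the Fgfr4 difference was -0.06, so no direction is given for this gene.

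**Figure D2:**
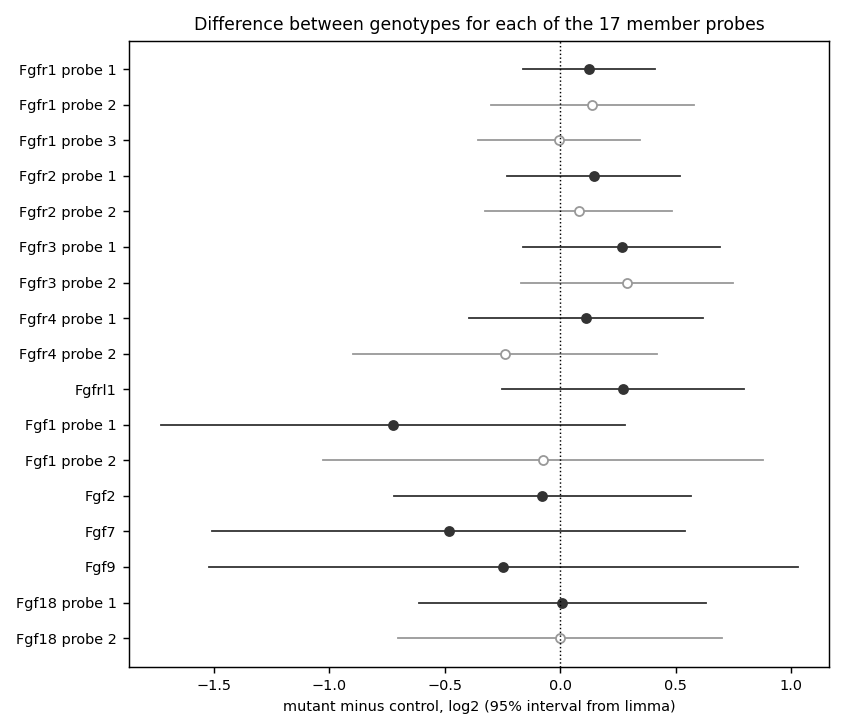
Mutant minus control difference (x axis, log2) with its 95% interval from limma for each of the 17 probes of the 10 genes (rows); filled points are the brightest probe of a gene and open points its other probes. Every interval includes 0, and the Fgfr4 probes lie on opposite sides of it.

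For 4 of 5 receptors mutant 2 was the highest array, and for 3 of 5 control 1 was the lowest. Over all features mutant 2 was highest for 38% and control 1 lowest for 34.5%. Of the 17 chondrocyte markers 15 were highest on mutant 2 and 12 lowest on control 1. The mean log2 score of the receptors (mean over genes of the log2 signal minus the gene's mean over 6 arrays) was 0.02, 0.33 and -0.07 in mutants, against -0.16, -0.04 and -0.07 in controls. The chondrocyte marker score was -0.02, 0.40 and -0.03 in mutants, against -0.32, -0.06 and 0.03 in controls. The summed level of these 17 markers was 3917 to 5107 times the 75th percentile in mutants, against 3530 to 4255 in controls. The part of cartilage content in the receptor values was not tested.

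The 250 bases before a start site of Fgfr3, Fgfrl1 and Fgf18 are shown because Fgfr3 and Fgfrl1 had the largest receptor differences and both peaked on mutant 2, while Fgf18, the growth plate ligand, did not. The sequences are from RefSeq on build GRCm38.p6, where 8 of the 10 genes matched a window. They are written 5′ to 3′ on the gene's strand and end at the base before the start. Capitals mark the motifs searched for on both strands, which were the GC box GGGCGG, the TATA box TATAAA, the CCAAT box, the RBPJ core TGGGAA (RBPJ is the DNA-binding partner of Notch) and the SOX motif ACAAAG. Fgfr3 lies at chr5:33721474-33721723 (plus strand), Fgfrl1 at chr5:108693979-108694228 (plus strand) and Fgf18 at chr11:33147401-33147650 (minus strand).
Fgfr3: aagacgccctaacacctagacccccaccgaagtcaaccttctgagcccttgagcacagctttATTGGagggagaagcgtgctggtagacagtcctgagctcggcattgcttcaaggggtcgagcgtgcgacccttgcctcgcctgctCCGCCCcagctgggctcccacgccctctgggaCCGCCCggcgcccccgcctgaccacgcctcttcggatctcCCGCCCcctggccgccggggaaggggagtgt
Fgfrl1: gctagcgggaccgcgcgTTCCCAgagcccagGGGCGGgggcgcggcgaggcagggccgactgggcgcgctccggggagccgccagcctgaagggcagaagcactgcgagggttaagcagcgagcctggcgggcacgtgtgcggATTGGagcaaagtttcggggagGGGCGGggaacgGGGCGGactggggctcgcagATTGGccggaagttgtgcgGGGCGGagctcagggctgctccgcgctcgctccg
Fgf18: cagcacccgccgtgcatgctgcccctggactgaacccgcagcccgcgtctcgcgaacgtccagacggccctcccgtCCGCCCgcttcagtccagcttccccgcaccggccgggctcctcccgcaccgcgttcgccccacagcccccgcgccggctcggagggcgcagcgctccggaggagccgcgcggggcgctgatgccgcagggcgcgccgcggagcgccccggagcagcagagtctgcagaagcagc
Fgfr3 held 3 GC boxes, the nearest starting at position -31, and 1 CCAAT box. RefSeq lists another start for Fgfr3, and its window at chr5:33722056-33722305, not printed here because it lies within the gene, held 2 GC boxes and no CCAAT box, with a GC content of 72.8%. Fgfrl1 held 4 GC boxes, 2 CCAAT boxes and 1 RBPJ core, and Fgf18 held 1 GC box. TATA and SOX motifs were found in none of the 3 windows printed. Of 32851 windows of the same length, 32.7% held a GC box, 33.8% a CCAAT box, 21.6% the RBPJ core, 12.4% the TATA box and 16.5% the SOX motif. The GC content was 66.8% for Fgfr3, 73.6% for Fgfrl1 and 77.2% for Fgf18, against a median of 52.4% over all windows.

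Fgf18, the perichondrial ligand of Fgfr3, read 1.19, 0.84 and 1.04 in mutants, against 1.58, 0.70 and 0.76 in controls. Control 1 was the highest array, and the other controls lay below every mutant. The difference was 0.0092 (SE 0.26, 95% interval -0.61 to 0.63). The second probe read 0.19, -0.26 and -0.12 in mutants, against 0.58, -0.39 and -0.38 in controls, a difference of -0.00065 (SE 0.29), with the same array on top. Fgf9, another perichondrial ligand, read -0.73, -1.19 and -0.62 in mutants, against 0.68, -1.32 and -1.15 in controls. Its difference was -0.25 (SE 0.53, 95% interval -1.53 to 1.04), and control 1 exceeded the next highest array by more than the range of all others.

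Without control 1 the Fgf9 difference turned to 0.39 (unadjusted p 0.115) and that of Fgf18 became 0.29. Without both control 1 and mutant 2, arrays set aside after their values were known, Fgf9 had a difference of 0.56 (SE 0.12, unadjusted p 0.00844, adjusted p 0.431 in limma) and Fgf18 one of 0.38 (SE 0.11, unadjusted p 0.0251, adjusted p 0.564). Neither passed the adjusted threshold. Control 1 also had the highest scores of skeletal muscle markers, at 2.37, and of perichondrium and fibroblast markers, at 0.82. It was likewise highest for neutrophil markers at 2.09, erythroid markers at 2.03 and B lymphocyte markers at 1.47. All 10 muscle markers were above background, and their summed level was 84.8 to 426.7 times the 75th percentile in mutants, against 125.3 to 676.8 in controls. All 12 perichondrium and fibroblast markers were above background, with sums of 274.9 to 325.2 in mutants, against 255.3 to 389 in controls. The part of these tissues and blood cells in the Fgf9 and Fgf18 values was not tested.

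Fgf1, a ligand that binds all of the kinase receptors, had the largest difference among the members. Its brighter probe read 0.15, -1.30 and 0.33 in mutants, against 0.45, 0.47 and 0.43 in controls. Every mutant lay below every control, but mutants 1 and 3 lay close to them and mutant 2 lay far below. The difference was -0.72 (SE 0.42, 95% interval -1.74 to 0.29), or 1.65-fold lower, with an unadjusted p of 0.132, an adjusted p of 0.987 and an exact two-sided permutation p of 0.1. Without mutant 2 it was -0.21. The dimmer Fgf1 probe, above background on 2 mutant and 2 control arrays, read -4.38, -5.12 and -4.34 in mutants, against -4.38, -5.32 and -3.91 in controls, a difference of -0.08 (SE 0.40).

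Fgf7, a mesenchymal ligand that acts on the epithelial form of Fgfr2, read -1.28, -2.86 and -1.28 in mutants, against -1.29, -1.36 and -1.32 in controls. It was all but equal on 5 arrays and low on mutant 2. The difference was -0.48 (SE 0.43, 95% interval -1.51 to 0.55), and it was 0.04 without mutant 2. On that array the adipocyte marker score was -1.87, the macrophage score -1.79, the osteoclast score -1.81 and the muscle score -2.26, each the lowest of the 6 arrays. Of 8 adipocyte markers 7 were detected, Lep being the exception, and their summed level was 3.66 to 19.2 times the 75th percentile in mutants, against 11.9 to 20.6 in controls. For the 8 macrophage markers above background, which Cd163 was not, the sums were 7.78 to 27.3 in mutants, against 29.9 to 38.0 in controls, and for the 10 osteoclast markers 35.9 to 167.4 in mutants, against 244.2 to 333.5 in controls. The part of these cells in the Fgf1 and Fgf7 values was not tested.

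Fgf2, which is stored in the matrix around chondrocytes bound to perlecan, was measured by 10 spots of 1 probe. It read -2.23, -2.08 and -1.61 in mutants, against -2.38, -1.78 and -1.53 in controls. The ranges lay almost on top of each other, and the difference was -0.08 (SE 0.27, 95% interval -0.72 to 0.57). The SD between spots was 0.11, 0.15 and 0.17 in mutants, against 0.11, 0.19 and 0.14 in controls. The SD between mice was 0.32 in mutants and 0.44 in controls, and whether that spread comes from the mice or from the arrays cannot be told apart here.

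**Figure D3:**
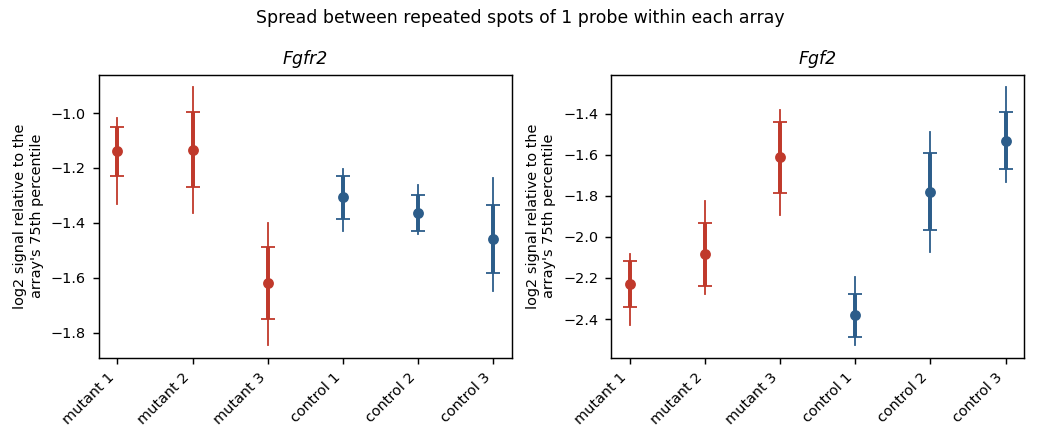
Log2 signal of the repeated spots of the Fgfr2 probe and the Fgf2 probe (y axis) on each array (x axis), mutants in red and controls in blue; points are means over 8 to 10 spots, thick bars the SD and thin lines the full range. For both genes mutant 3 stands apart from the other mutants by more than the SD between spots. For Fgf2 control 3 also stands apart from the other controls, and control 1 does so by more, at -2.38 against -1.78 and -1.53 in controls 2 and 3. For Fgfr2 control 3 lies within its own SD of control 2.

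Other ligands of the family were mostly at background. Of 17 further FGF genes 6 could be tested, and 0 had an unadjusted p below 0.05 (3.44% of all features). Of these 6, 3 were above 0 (60.0% of all features) and 3 below. Fgf13, Fgf14 and Fgf8 had differences of -0.29 (SE 0.32), 0.13 (SE 0.21) and -0.09 (SE 0.14). Fgf6, the ligand of skeletal muscle, read -1.36, -6.17 and -1.53 in mutants, against -0.02, -3.42 and -3.52 in controls, and was above background on 2 mutant and 3 control arrays. Its arrays ran in the same order as those of the muscle marker score, with control 1 highest and mutant 2 lowest. The part of muscle in the Fgf6 values was not tested. Fgf23, the phosphate-regulating hormone, read 6.35, 6.28 and 6.67 in mutants, against 6.17, 6.37 and 6.67 in controls, a difference of 0.03 (SE 0.18). These values rest on 1 probe, and whether it reads Fgf23 alone was not tested.

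Coreceptors hold the ligand at the receptor, and 15 of the 18 listed klotho, syndecan, glypican and related genes could be tested. Differences were above 0 for 11 (60.0% of all features) and below 0 for 4, with a median of 0.10, and 1 of 15 had an unadjusted p below 0.05 (3.44% of all features), a share near the background. That gene was Hspg2, which encodes the heparan sulfate proteoglycan perlecan. It read 6.37, 6.64 and 6.51 in mutants, against 5.94, 6.25 and 6.27 in controls, so that every mutant exceeded every control (5.19% of all features). The difference was 0.35 (SE 0.15, 95% interval 0.0016 to 0.70), with an unadjusted p of 0.0492 and an adjusted p of 0.987. The syndecan Sdc4 had a difference of 0.37 (SE 0.20), and Flrt2, a membrane protein that binds FGF receptors, one of -0.21 (SE 0.15). The glypican Gpc2 had one of -1.13 (SE 0.79), with 2 of 3 mutant arrays above background. Gpc2 read -4.44, -7.11 and -3.96 in mutants, against -4.40, -3.81 and -3.91 in controls, so its difference rests on mutant 2.

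Of 21 adaptors and kinases below the receptors 20 could be tested, and 0 had an unadjusted p below 0.05 (3.44% of all features). Differences were above 0 for 13 (60.0% of all features) and below 0 for 7, all between -0.19 and 0.30, with a median of 0.07. The docking protein Frs2 had a difference of 0.30 (SE 0.19), the kinase Map2k1 one of 0.21 (SE 0.15) and the ubiquitin ligase Cbl, which marks active receptors for degradation, one of -0.19 (SE 0.12).

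Many of the genes that FGF signalling induces feed back to damp the MAP kinase cascade. Of 16 induced genes tested, 0 had an unadjusted p below 0.05 in limma (3.44% of all features). The difference was below 0 for 12 of 16 (10199 of 25494 over all features), with a median of -0.16. Without mutant 3 the count was 9 of 16 and the median -0.076, without control 2 the median was -0.33, and with array weights it was -0.043. Without mutant 2 and control 1 the count was 11 and the median -0.09. Dusp6, the phosphatase of ERK that is the usual readout of FGF signalling, read 1.85, 1.29 and 2.15 in mutants, against 2.67, 2.27 and 2.13 in controls. Mutants 1 and 2 lay below every control and mutant 3 did not, and the difference was -0.60 (SE 0.26, 95% interval -1.22 to 0.03, unadjusted p 0.0575). The inhibitor Spry4 had a difference of -0.42 (SE 0.20), with -3.09, -3.65 and -3.53 in mutants and -2.76, -3.03 and -3.21 in controls. The phosphatases Dusp5 and Dusp4 had differences of -1.08 (SE 0.55) and -1.34 (SE 0.70). Dusp5 was above background on only 1 mutant and 2 control arrays and Dusp4 on 2 mutant and 3 control arrays. Dusp5 read -5.90, -4.80 and -7.06 in mutants, against -4.94, -5.17 and -4.41 in controls. Dusp4 read -3.44, -5.82 and -3.22 in mutants, against -3.08, -3.13 and -2.25 in controls, with mutant 2 far below the other arrays. The FGF-responsive factors Etv4 and Etv5 differed by 0.01 (SE 0.17) and -0.16 (SE 0.15). Every mutant lay below every control for Dusp4 and Spred2, 2 of 16 (3.75% of all features). For Spred2 the gap was minute, with mutant 1 at -1.633 and control 1 at -1.631.

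The score of these 16 genes was -0.09, -0.10 and -0.26 in mutants, against 0.43, -0.04 and 0.05 in controls, with control 1 the highest array. Among the immediate early genes on the list Egr1 read 1.03, 2.81 and 1.13 in mutants, against 3.09, 0.84 and 1.06 in controls, and Fos read -0.47, 2.24 and -0.61 in mutants, against 1.03, -0.32 and -0.40 in controls. For both genes mutant 2 and control 1 were the highest arrays. Myc read 1.03, 1.06 and 0.92 in mutants, against 0.43, 0.95 and 1.08 in controls, with control 1 the lowest array.

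**Figure D4:**
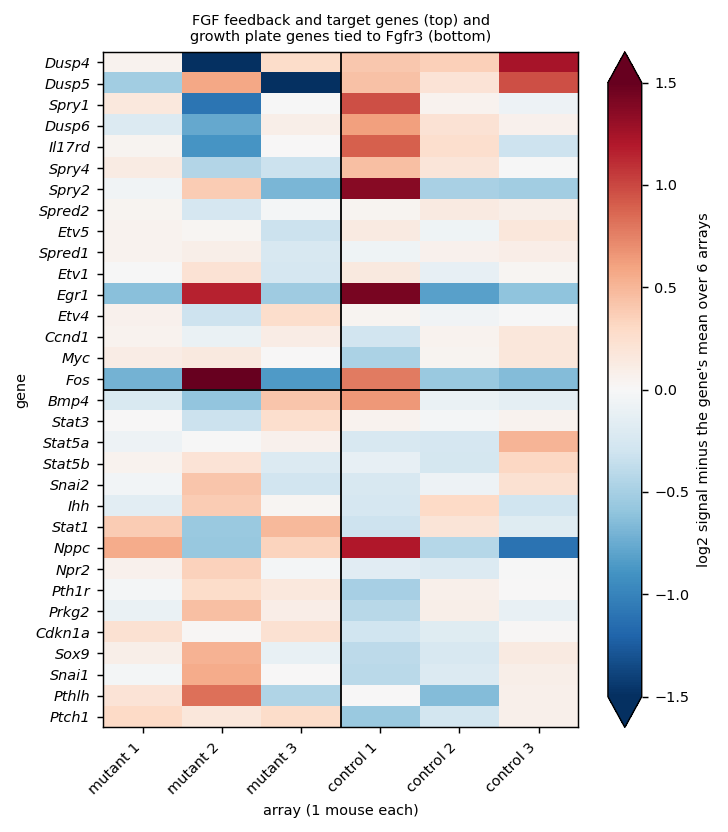
Log2 signal minus the gene's mean over the 6 arrays (colour, which saturates at the ends of the bar) for the 16 tested FGF feedback and target genes (upper block) and the 16 growth plate genes tied to Fgfr3 signalling (lower block), mutants left of the vertical line. Egr1 and Fos are high on mutant 2 and control 1, and Spry1, Dusp6 and Il17rd are low on mutant 2 and high on control 1. Ptch1 and Cdkn1a (mutants higher) and Dusp4 and Spred2 (mutants lower) separate the genotypes, Spred2 by a minute gap.

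Growth plate genes known to act with or under Fgfr3 had a median difference of 0.24, and 13 of 16 were above 0 (60.0% of all features). Of the 17 chondrocyte markers 15 were above 0, with a median of 0.28, and Sox9 is on both lists. The growth plate list holds both Cdkn1a, which FGF signalling induces, and Npr2, which opposes Fgfr3. Its count above 0 therefore gives no direction of Fgfr3 signalling. Ptch1, the Hedgehog receptor and target gene, was the only growth plate gene listed with an unadjusted p below 0.05, 1 of 16 against 3.44% of all features. It read 1.11, 0.98 and 1.09 in mutants, against 0.25, 0.54 and 0.89 in controls, and every mutant exceeded every control. Control 1 was the lowest array, and the gap between mutant 2 and control 3 was narrow. The difference was 0.50 (SE 0.18, 95% interval 0.07 to 0.94, unadjusted p 0.0301, adjusted p 0.987). Cdkn1a, the cell cycle inhibitor p21 that FGF signalling induces in chondrocytes, read 2.80, 2.60 and 2.80 in mutants, against 2.28, 2.39 and 2.59 in controls, a difference of 0.32 (SE 0.14, unadjusted p 0.0574). Its groups also did not overlap, though only narrowly, which makes 2 of 16 with every mutant higher (5.19% of all features). Npr2, the receptor of C-type natriuretic peptide that opposes Fgfr3, had a difference of 0.26 (SE 0.14) and the transcription factor Snai1 one of 0.35 (SE 0.22). The score of this list was 0.08, 0.13 and 0.08 in mutants, against -0.13, -0.14 and -0.02 in controls, beside the chondrocyte scores given above, and the part of cartilage content was not tested.

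**Figure D5:**
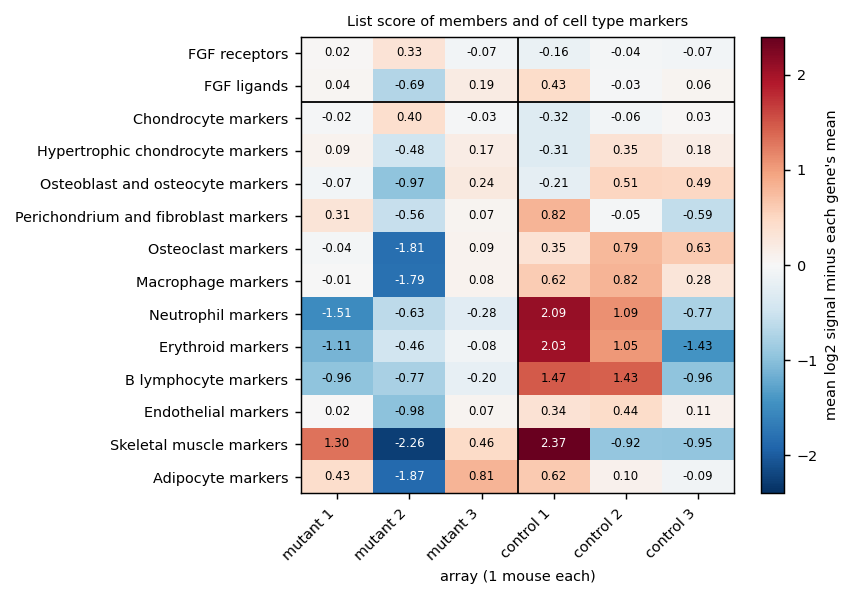
List score (mean log2 signal minus each gene's mean over 6 arrays; number and colour in each cell) of the FGF receptors, the FGF ligands and 12 cell type marker lists (rows) on each array (columns), mutants left of the vertical line. Receptors and chondrocyte markers are both highest on mutant 2, at 0.33 and 0.40, and the ligand score is lowest there, at -0.69.

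Among the 15657 other genes with a symbol, the patterns most like that of Fgfr3 over the 6 arrays were those of Pgam1, a glycolytic enzyme, with a Pearson r of 0.998, of Zfp593 with 0.995 and of 2310068J16Rik with 0.994. Nearest to Fgfr1 were Morn4 at 0.999, Get4 at 0.998 and Slc35a2 at 0.997. Nearest to Fgfr2 were Ist1 at 0.992, Cdc5l at 0.988 and Enox2 at 0.986. These 6 points share RNA extract, labelling and scaling within each array, and the r values are a description of these arrays only.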

How the data were processed

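RNA of tibial cartilage from 3 mutant and 3 control mice was hybridised to Agilent 1-colour arrays. The labels' protocols name the dye Cy3 while the label field names Cy5, and the file headers record 1 channel. The submitters' processing notes name Agilent Feature Extraction, version 10.7.1.1, as the software behind the scanner files. The authors deposited intensity values that were background-subtracted within the array and not normalized between arrays, per the file headers and the values. The authors' deposited value table holds a linear ratio to the 75th percentile of each array. Its column medians ran from 0.094 to 0.104 and its centring was inferred from the values, since its making is not given in the sources used here.

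Outlier and control spots were left out, log2 processed signal was set relative to the array's 75th percentile over non-control spots, and spots of a probe were averaged. Symbols came from RefSeq accessions of assembly GRCm38.p6, which named 27656 of 55681 probes. Probes well above background on at least 3 of 6 arrays were kept, and a gene was its brightest passing probe. This left 35236 probes and 25494 features. The test was limma (version 3.58.1, under R 4.3.3), two-sided, using lmFit and eBayes with Benjamini-Hochberg adjustment. Values of a gene's further probes come from the same fit run over 35228 single probes. The limma code was tested on simulated data. The 10 genes and all lists were chosen with earlier results of these data known. All members are named, and of each pathway list the 4 genes with the smallest p, except 1 gene that is not reported here. Fgf23, Egr1, Fos, Myc, Etv4, Etv5 and Spred2 were added after their values were seen. Alternatives were other background correction, scaling, filters, probe rules, covariates, weights, the authors' deposited table and left-out arrays. The scanner files used here hold spot medians, so normexp ran on these in place of spot means. The number of arrays limits the precision.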

Additional observations from a re-analysis of the deposited data

How the results depend on the processing

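Under the 20 alternatives tried 0 of the 10 genes passed the adjusted threshold, and the direction of Fgfr1, Fgfr2, Fgfr3 and Fgf1 was the same in all 20. Not all of these could change a difference. The replicate block, sex as a covariate, a trended and robust variance and the other filters left every member's difference as it was. The slide row block and the first row alone gave the same estimates. The 20 are thus not separate checks of direction. Array weights called 4 features in all and gave 1 of 10 members, Fgf18, an unadjusted p below 0.05, as they did 3985 of 25494 features. Leaving out control 1 and mutant 2 together was an alternative chosen after seeing the data. It gave 2 of 10 members an unadjusted p below 0.05, as it did 1906 of 25494 features. It left 7 of 15 coreceptor differences above 0 and 5 members with groups that did not overlap (38.0% of all features). The differences were then -0.021 for Fgfrl1, 0.061 for Fgf7 and 0.56 for Fgf9. The groups did not overlap for 1 member with normexp and percentile scaling, for 1 with quantile scaling, for 0 with the mean of passing probes (8.28% to 9.53% of all features in these 3) and for 7 on the first slide row alone (38.7% of all features), which holds 1 mutant assumed to vary like the controls. With so few arrays groups lie apart often, and no result is read from these counts. Leaving out single arrays gave 2 to 5 members with groups apart, the most without mutant 3 (21.0% of all features, against 14.3% to 21.0% over these settings). The Fgf18 difference turned to -0.00026 with normexp and percentile scaling, -0.0095 with normexp and quantile scaling, -0.011 with quantile scaling and -9.3e-05 with the authors' deposited table. Fgfr4 turned to -0.065 with the mean of its probes, to -0.20 with the slide row as a block or on the first row alone, and to -0.080 with array weights. Fgf7 turned to 0.043 with the slide row as a block or on the first row alone, and Fgf9 to 0.42 with array weights. Without one array at a time, the difference ran from 0.057 to 0.25 for Fgfr2, -0.088 to 0.27 for Fgfr4, -0.32 to 0.11 for Fgf2, -0.75 to 0.044 for Fgf7, -0.61 to 0.39 for Fgf9 and -0.15 to 0.29 for Fgf18. The causes were not tested, except that left-out arrays and the mean of probes change what is averaged.

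No pairing by replicate number was seen. Deviations of same-numbered mice correlated at 0.21, 0.06 and -0.16, and those of differently numbered mice at -0.23 to 0.25. Deviations sum to 0 within each group of 3, so these values cannot exclude a pairing. Under the replicate block 0 members had an unadjusted p below 0.05 and 0 features were called. No saturation was seen, and of the member probes the dimmer Fgf1 probe alone was not above background on every array.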
